A study of Homo sapiens with 4 samples.

Results

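The small nucleolar RNA (snoRNA) host genes GAS5, SNHG1, SNHG5, SNHG8 and ZFAS1 were followed in A-seq libraries of HEK293 cells, an established human embryonic kidney line. A-seq sequences the 3′ ends of polyadenylated RNA, so that each read marks a cleavage and polyadenylation position. The members were chosen by hg19 (GRCh37) strand windows, and all 5 had reads in all 4 libraries, among 18156 loci in the whole series. The windows were chromosome 1, 173832500 to 173838000, minus strand (GAS5), chromosome 11, 62619000 to 62624000, minus strand (SNHG1), chromosome 6, 86386000 to 86389000, minus strand (SNHG5), chromosome 4, 119199500 to 119201500, plus strand (SNHG8), and chromosome 20, 47894500 to 47906500, plus strand (ZFAS1).

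The groups were untransfected cells without siRNA, cells with a scrambled control siRNA, cells with an siRNA against CstF-64 and cells with an siRNA against CF Im 68. All siRNA-treated cells were harvested after 3 days, and each group was 1 library. Both targets belong to the 3′ end processing machinery. Cleavage factor I, with its CF Im 68 subunit, recognises UGUA upstream of the cleavage position. CstF, through CstF-64, contacts U- or GU-rich RNA downstream of it. The depletions addressed the choice between alternative poly(A) sites. The siRNA strands of the depleted libraries identify these groups, and capitals mark the 19 bases that the labels define.
CstF-64 siRNA: nnCCUGAAUGGGCGCGAAUUC
CF Im 68 siRNA: nnGACCGAGAUUACAUGGAUA

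A snoRNA host gene carries snoRNAs in its introns. Splicing releases the introns, from which the snoRNAs are trimmed, while the spliced and polyadenylated host RNA is exported and, for several of these genes, is degraded during translation by nonsense-mediated decay. Many host genes start transcription at a C within a run of pyrimidines, the 5′ terminal oligopyrimidine arrangement that they share with ribosomal protein genes. A-seq counts the host RNA and not the snoRNAs. A lower count can mean less synthesis, less polyadenylation or faster decay, which these counts cannot tell apart, nor can bulk counts tell fewer expressing cells from less RNA per cell.

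The start regions show how far the members resemble each other in a feature that the window rule did not use. Each stretch below holds the 10 bases before the annotated start and the 20 from it, with 1 start per gene, from RefSeq promoters on GRCh38.p14, and capitals mark the letters CTTT.
GAS5: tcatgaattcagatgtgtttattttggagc
SNHG1: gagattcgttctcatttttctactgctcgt
SNHG5: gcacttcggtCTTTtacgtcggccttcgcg
SNHG8: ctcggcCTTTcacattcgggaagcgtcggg
ZFAS1: gccattcgttCTTTcgcgtctgcggtgccc
All 5 symbols matched this table. The annotated first base was C in 4 of the 5 genes, all but GAS5, and in 14.7% of 35116 promoters. With 1 annotated start per gene, these stretches cannot show the starts used in these cells, for GAS5 or the other members. CTTT was present on the printed strand, which has the sense of the RNA, in 3 of 5 and in 12.5% of all stretches of the same 30 bases. It lay at the start in SNHG5 and ZFAS1 and just before it in SNHG8. Its reverse complement was present in none of the 5 and in 9.64% of all stretches. The planned comparisons did not name CTTT, so these shares describe the stretches and test nothing.

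The libraries held 7343112 to 15806975 reads, with the CstF-64 library the smallest. Mitochondrial reads made up 1.17 to 1.79% in 3 libraries and 3.75% in the CF Im 68 library. Levels are given in RPM, the reads scaled to a library total of 1000000, with exact Poisson 95% intervals. Since A-seq counts 1 end per RNA molecule, RPM was not divided by length. Intervals cover counting error only: PCR copies were not separated, no group had a replicate, and the difference between the 2 control libraries is the only measure of background. The targeted genes were lower than both controls in their own libraries, but neither was 1.5-fold lower than both. CPSF6, which encodes CF Im 68, had 164 RPM without siRNA, 186 RPM with the control siRNA and 134 RPM after CF Im 68 siRNA. CSTF2, which encodes CstF-64, had 37.0, 23.9 and, after CstF-64 siRNA, 17.2 RPM. The control siRNA library was itself at 0.645 of no siRNA for CSTF2. Their windows were placed at known hg19 positions, which no table used here gave, and their main sites lay 4418 nt (CPSF6) and 1017 nt (CSTF2) from the known gene ends.

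GAS5 and ZFAS1 were the most abundant members. GAS5, which carries C/D-box snoRNAs in nearly all of its introns, had 165 RPM (158 to 171) without siRNA, 184 RPM (176 to 191) with the control siRNA, 83.1 RPM (76.6 to 89.9) in the CstF-64 library and 122 RPM (116 to 129) in the CF Im 68 library. These came from 2603, 2469, 610 and 1566 reads. Both depleted libraries were below both controls, and the CstF-64 library was the lowest. ZFAS1, a host of SNORD12 family snoRNAs that lies head to head with ZNFX1, had 146 RPM (140 to 152) without siRNA, 160 RPM (153 to 167) with the control siRNA, 133 RPM (125 to 142) in the CstF-64 library and 92.4 RPM (87.2 to 97.8) in the CF Im 68 library. Here the CF Im 68 library stood apart, while the intervals of the CstF-64 and no siRNA libraries overlapped.

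SNHG1, which carries SNORD22 and the SNORD25 to SNORD31 series, had 64.7 RPM (60.8 to 68.8) without siRNA, 56.5 RPM (52.5 to 60.6) with the control siRNA, 41.9 RPM (37.4 to 46.9) in the CstF-64 library and 22.3 RPM (19.8 to 25.0) in the CF Im 68 library. The interval of the CF Im 68 library lay below all others. SNHG5, the host of SNORD50, had 99.7 RPM (94.8 to 105) without siRNA, 60.6 RPM (56.5 to 64.9) with the control siRNA, 27.5 RPM (23.8 to 31.6) in the CstF-64 library and 42.1 RPM (38.7 to 45.8) in the CF Im 68 library. It was the member whose controls differed most. SNHG8, the host of the H/ACA-box snoRNA SNORA24, had 49.5 RPM (46.1 to 53.1) without siRNA, 57.1 RPM (53.2 to 61.3) with the control siRNA, 64.3 RPM (58.6 to 70.3) in the CstF-64 library and 43.0 RPM (39.5 to 46.7) in the CF Im 68 library. It was the member with its highest level in the CstF-64 library.

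**Figure D1:**
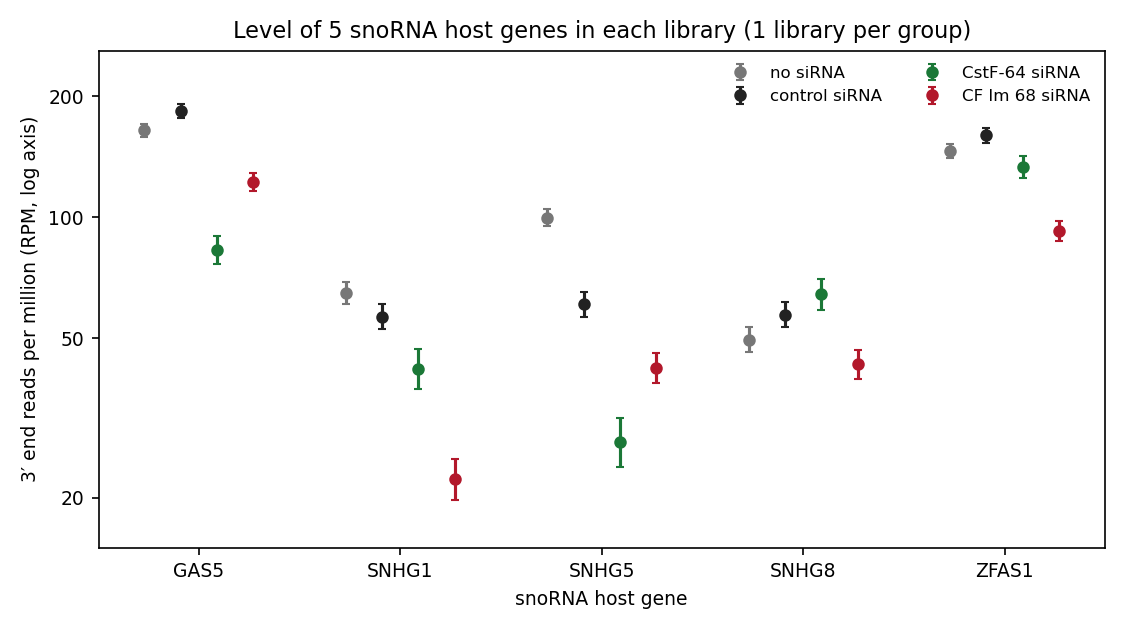
Level of each host gene in each library, in RPM on a log axis, with bars for exact Poisson 95% intervals (1 library per group). The CF Im 68 library (red) lies below both control libraries (grey and black) for all 5 genes, from 22.3 RPM for SNHG1 to 122 RPM for GAS5, and SNHG8 is highest in the CstF-64 library (green) at 64.3 RPM.

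The order of the levels differed between libraries. Without siRNA it ran GAS5, ZFAS1, SNHG5, SNHG1 and SNHG8, with no overlap between neighbouring intervals. After control siRNA, SNHG5, SNHG8 and SNHG1 lay at 60.6, 57.1 and 56.5 RPM with overlapping intervals. ZFAS1 was first after CstF-64 siRNA, and SNHG5 was last. After CF Im 68 siRNA the order was GAS5, ZFAS1, SNHG8, SNHG5 and SNHG1, and only SNHG8 and SNHG5 overlapped. All 5 together held 525 RPM without siRNA, 518 RPM with the control siRNA, 350 RPM in the CstF-64 library and 322 RPM in the CF Im 68 library.

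After CF Im 68 siRNA all 5 host genes were lower than in either control beyond counting error. The ratio to control siRNA was 0.395 for SNHG1 (exact conditional 95% interval 0.343 to 0.453), 0.577 for ZFAS1 (0.537 to 0.620), 0.667 for GAS5 (0.625 to 0.710), 0.695 for SNHG5 (0.622 to 0.776) and 0.753 for SNHG8 (0.673 to 0.841). Against no siRNA the ratios were 0.344 for SNHG1, 0.423 for SNHG5, 0.633 for ZFAS1, 0.743 for GAS5 and 0.868 for SNHG8 (0.777 to 0.969). Both intervals lay below 1 at 14.6%, and above 1 at 23.9%, of 17877 loci with at least 50 reads, and at 24.6% and 30.9% of the 3361 loci whose mean level reached that of the lowest member, 46.3 RPM. The count of 5 of 5 stood under TMM and DESeq2 factors and without mitochondrial reads.

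SNHG1 and ZFAS1 were at least 1.5-fold lower than both controls after CF Im 68 siRNA, as were 7.02% of all loci and 4.82% of the loci at or above the lowest member. SNHG1 was also at least 2-fold lower, at a background of 1.86% and 1.1%. No member was 1.5-fold higher, against 11.8% of all loci and 6.69% of those at or above the lowest member. The ratio of SNHG1 to control siRNA was below that of all but 0.774% of the 3361 loci, and that of SNHG8 below all but 13.5%. The median log2 ratio of RPM plus 1 was −0.58 over the 5 members against control siRNA and 0.02 over all loci. With 1 library per group this has no replicate check.

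After CstF-64 siRNA the host genes went apart. GAS5 had a ratio to control siRNA of 0.452 (0.413 to 0.494) and to no siRNA of 0.504 (0.461 to 0.551). SNHG5 had 0.454 (0.387 to 0.530) and 0.276 (0.237 to 0.320). These 2 genes were at least 1.5-fold lower than both controls, at a background of 16.9% of all loci and 11.5% of the loci at or above the lowest member. SNHG5 was also 2-fold lower, at a background of 6.1% and 3.87%. Without its most read position, which held 94.3% of the reads of its main site, GAS5 had a log2 ratio of −0.48 to control siRNA and was no longer called.

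SNHG1 and ZFAS1 were lower after CstF-64 siRNA by less, with ratios to control siRNA of 0.743 (0.649 to 0.849) and 0.832 (0.771 to 0.898). SNHG8 was higher, with 1.13 (1.001 to 1.263) over control siRNA and 1.30 (1.16 to 1.46) over no siRNA. Both intervals lay below 1 for 4 of 5 members (23.3% of all loci and 32.3% of those at or above the lowest member) and above 1 for SNHG8 (12.5% and 27.2%). No member was 1.5-fold higher, at a background of 5.63% and 5.5%. The scaling bears on this comparison, since the median log2 ratio of all loci was −0.19 by total reads. Over the loci at or above the lowest member it was only −0.04. Relative to the median of all loci, the log2 ratio was −0.95 for GAS5, −0.92 for SNHG5, −0.23 for SNHG1, −0.07 for ZFAS1 and 0.36 for SNHG8. Before this subtraction it was −0.42 for SNHG1, −0.26 for ZFAS1 and 0.17 for SNHG8, and the median of the abundant loci would change these little. With TMM factors the ratios to control siRNA were 0.528 for GAS5, 0.529 for SNHG5, 0.867 for SNHG1, 0.971 for ZFAS1 (0.899 to 1.05) and 1.31 for SNHG8. Then 3 members had both intervals below 1, and with DESeq2 factors 2.

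**Figure D2:**
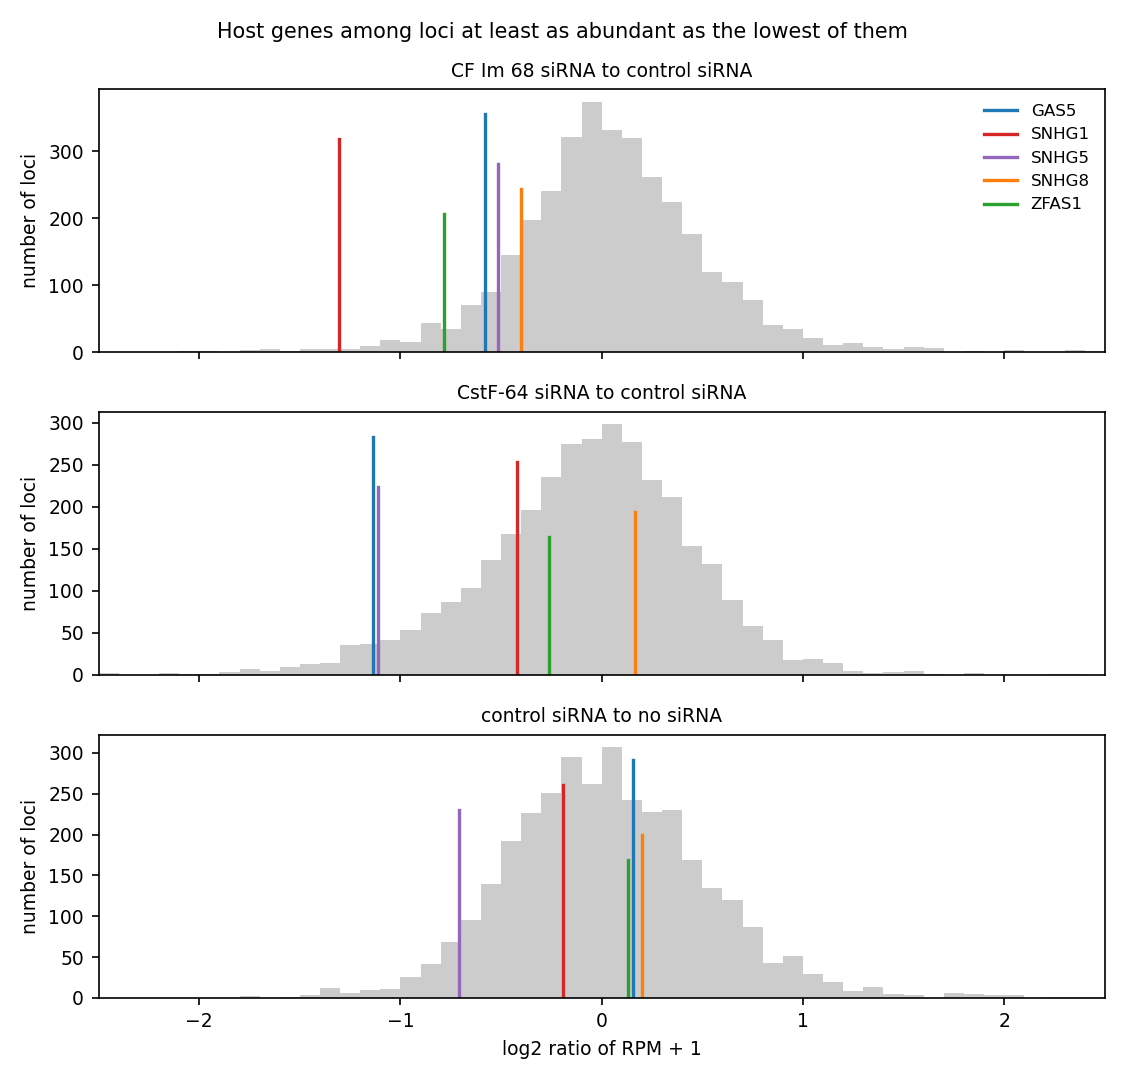
Number of loci (grey bars) by log2 ratio of RPM plus 1 in bins of 0.1, over the 3361 loci at least as abundant as the lowest host gene, with a coloured line at the value of each host gene (line heights carry no meaning). For CF Im 68 siRNA to control siRNA all 5 lines lie left of 0, from −1.30 for SNHG1 to −0.40 for SNHG8, while for CstF-64 siRNA they spread from −1.14 for GAS5 to 0.17 for SNHG8.

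The depleted libraries also differed from each other. SNHG1 was lower after CF Im 68 siRNA than after CstF-64 siRNA (ratio 0.531, 0.451 to 0.626), as were SNHG8 (0.669, 0.590 to 0.758) and ZFAS1 (0.694, 0.637 to 0.756). GAS5 (1.47, 1.34 to 1.62) and SNHG5 (1.53, 1.30 to 1.81) were higher. The median log2 ratio in this comparison was 0.23 over all loci and 0.07 over the loci at or above the lowest member. GAS5 and SNHG5 lay 0.32 and 0.36 above the median of all loci.

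The control libraries differed as well. SNHG5 was lower after control siRNA than without siRNA, with a ratio of 0.608 (0.558 to 0.662), at a background of 8.53% of all loci and 8.75% of those at or above the lowest member for 1.5-fold lower. No member was 1.5-fold higher, against 18.3% and 12.9%. The other members had ratios of 0.872 (SNHG1) to 1.15 (SNHG8). The CF Im 68 library was thus 1.44-fold below control siRNA for SNHG5 and 2.37-fold below no siRNA, a pair of values that lie on either side of the 1.5-fold threshold.

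Of the 11 other noncoding host genes on a list, 6 had their main 3′ end within 300 nt of the known gene end and were used: SNHG9, SNHG11, SNHG12, SNHG15, SNHG16 and SNHG17. SNHG3, SNHG7, SNHG10, DANCR and EPB41L4A-AS1 did not meet this rule. Their windows too were placed at known positions. None of the 6 was 1.5-fold lower or higher than both controls after CF Im 68 siRNA, against 7.02% and 11.8% of all loci. Their median log2 ratio to control siRNA was −0.30, with 4 below and 1 above both controls, a count not made over all loci. After CstF-64 siRNA the median was 0.01, and 1 of the 6 was called lower and 1 higher, against 16.9% and 5.63% of all loci. The lower one was SNHG11, the least abundant, with 29.0 and 28.8 RPM in the controls and 18.7 RPM in the CstF-64 library. The higher one was SNHG16, the most abundant, with 366 and 567 RPM in the controls, 984 RPM in the CstF-64 library and 761 RPM in the CF Im 68 library. With all 11 genes, a choice made after seeing the data, 2 were called lower after CF Im 68 siRNA (7.02% of all loci). These were SNHG7, with 63.6 and 84.0 RPM in the controls and 30.9 RPM in the CF Im 68 library, and EPB41L4A-AS1, with 189, 99.7 and 48.7 RPM. After CstF-64 siRNA 2 of the 11 were called lower, SNHG11 and again SNHG7, with 35.1 RPM in that library.

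The poly(A) sites of the members fell into 2 kinds. Positions within 25 nt of the most read one were joined into a site. GAS5, SNHG8 and ZFAS1 ended almost entirely at 1 site, at 173833040, 119200978 and 47905794, with mean shares of 96.8%, 97.1% and 99.7% of the window reads. SNHG1 and SNHG5 had 2 and 3 sites with at least 5% of the reads. For the single-site genes the change in level was therefore a change at that site. In GAS5 the reads outside it, nearly all upstream, made up 1.69% without siRNA, 3.24% after control siRNA, 6.72% in the CstF-64 library (exact Clopper-Pearson 95% interval 4.87 to 9.01) and 2.94% in the CF Im 68 library. In RPM they were 2.78, 5.95, 5.58 and 3.60. Against control siRNA, the high share after CstF-64 siRNA thus went with a lower main site. Against no siRNA it went with both a lower main site and a higher level outside it.

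SNHG1 ended at 62619461 and, 830 nt upstream, at 62620291. The upstream site had 12.8 RPM without siRNA, 12.3 RPM with the control siRNA, 6.40 RPM in the CstF-64 library and 2.74 RPM in the CF Im 68 library. The downstream main site had 50.5, 42.8, 35.0 and 18.8 RPM. Both sites were lower in the depleted libraries, and the upstream one by more. Its share of the pair was 20.3% (17.8 to 22.9) without siRNA, 22.4% (19.4 to 25.5) after control siRNA, 15.5% (11.6 to 20.0) in the CstF-64 library and 12.7% (8.99 to 17.2) in the CF Im 68 library.

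A pair counted as moved when the Benjamini-Hochberg adjusted p of a two-sided Fisher's exact test against control siRNA was under 0.05 and the share differed by at least 10 points from both controls. That test compares 2 libraries, not conditions. The SNHG1 share differed by −9.69 points from control siRNA after CF Im 68 siRNA (adjusted p = 0.00138, Fisher's exact test over 4793 pairs), and by −7.58 points from no siRNA, short of a move. After CstF-64 siRNA it differed by −6.91 points from control siRNA (adjusted p = 0.0434, Fisher's exact test). From no siRNA it differed by −4.80 points, with an adjusted p of 0.12 in Fisher's exact test against that library alone. Only SNHG1 and SNHG5 had a tested pair. In the CF Im 68 library 24.2% of the tested pairs gained proximal share past this threshold and 2.63% gained distal share, and the SNHG1 difference had the direction of the smaller group.

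SNHG5 ended mainly at 86386802, with further sites 75 nt downstream at 86386727 and 48 nt upstream at 86386850. The main site had 84.1 RPM without siRNA, 44.0 RPM with the control siRNA, 15.9 RPM in the CstF-64 library and 31.1 RPM in the CF Im 68 library. The downstream site had 8.79, 9.82, 8.72 and 9.46 RPM, with overlapping intervals in all libraries. The upstream site had 6.01, 5.06, 2.04 and 1.25 RPM. The level of SNHG5 thus differed between libraries at the main and upstream sites, and not beyond counting error at the downstream one.

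As a pair, the main over the downstream site had 90.5% (88.9 to 92.0) without siRNA, 81.7% (78.7 to 84.5) after control siRNA, 64.6% (57.2 to 71.6) in the CstF-64 library and 76.7% (72.8 to 80.3) in the CF Im 68 library. In the CstF-64 library SNHG5 moved distally, as did 3.59% of pairs, against 8.2% that moved proximally. The share fell by 17.1 points against control siRNA (adjusted p = 2.02e-05, Fisher's exact test) and by 25.9 against no siRNA. After CF Im 68 siRNA the differences were −5.06 points (adjusted p = 0.0579) and −13.9 points, which is no move. The controls themselves differed by 8.80 points (adjusted p = 1.15e-07), less than a move, which 10.6% of pairs made in the proximal and 11.1% in the distal direction between the controls. When positions were joined within 10 nt the call ended, because the pair then became 86386818 and 86386802 inside the main site.

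**Figure D3:**
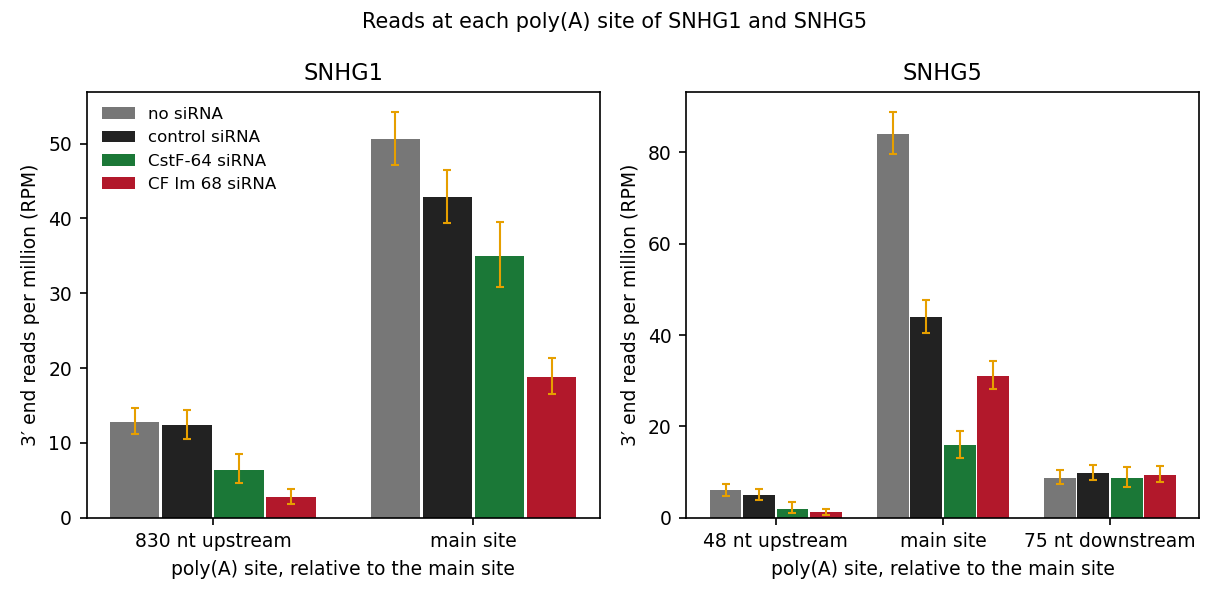
RPM at each poly(A) site of SNHG1 and SNHG5, with distances from the main site in nt, bars for the 4 libraries and orange lines for exact Poisson 95% intervals. The SNHG5 site 75 nt downstream stays between 8.72 and 9.82 RPM while its main site ranges from 15.9 to 84.1 RPM, and both SNHG1 sites are lowest in the CF Im 68 library.

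Cleavage was sharp in GAS5 and ZFAS1, near the median of other sites in SNHG5 and SNHG8, and spread out in SNHG1. The most read position held 94.3% of the main site's reads in GAS5 and 94.4% in ZFAS1, pooled over the libraries, against a median of 69.8% over 3073 sites of at least 46.3 RPM (quartiles 51.0 and 86.6%). SNHG5 had 64.4% and SNHG8 63.2%, both within the quartiles. SNHG1 had 39.3%, a value below that of about 90% of the sites, since only 9.86% were lower. Its reads were divided mainly between 62619461 and the position 2 nt upstream.

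Within the SNHG5 main site the CF Im 68 library stood apart. The position 16 nt upstream of the most read one held 22.3% of the site's reads without siRNA (20.0 to 24.6), 17.6% with the control siRNA (14.6 to 20.9) and 26.5% in the CstF-64 library (18.8 to 35.5), but 6.53% after CF Im 68 siRNA (4.31 to 9.43). The most read position held 63.8%, 58.7% and 60.7% in the other libraries and 75.6% after CF Im 68 siRNA (71.1 to 79.8). With the upstream site at 86386850, which had 6.03%, 8.34% and 7.43% of the window reads and then 2.97% after CF Im 68 siRNA (1.71 to 4.78), the 5′-most ends of SNHG5 had their smallest shares in that library. With positions joined within 10 nt, the position 16 nt upstream and the most read one formed the tested pair. The share of the former then fell by 11.4 points against control siRNA in the CF Im 68 library (adjusted p = 5.2e-07, Fisher's exact test). This was a distal move, which 2.87% of pairs made under that setting, against 21.6% that moved proximally. In the CstF-64 library the share differed by 9.41 points (adjusted p = 0.0748, Fisher's exact test).

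In SNHG1 and SNHG8 the no siRNA library stood apart instead. The SNHG1 position most read over the 4 libraries together held 30.4% without siRNA (27.2 to 33.7). In that library the position 2 nt upstream held more, 35.7%. The former position held 45.7%, 45.5% and 46.9% after control, CstF-64 and CF Im 68 siRNA. The position 10 nt downstream held 16.1% without siRNA (13.7 to 18.9) and 5.84 to 7.05% in the siRNA libraries. In SNHG8 the most read position held 54.6% without siRNA (51.0 to 58.2) and 67.2%, 67.5% and 65.8% in the siRNA libraries. These differences within the SNHG1 and SNHG8 sites were not tested, and each rests on single positions of 1 library.

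**Figure D4:**
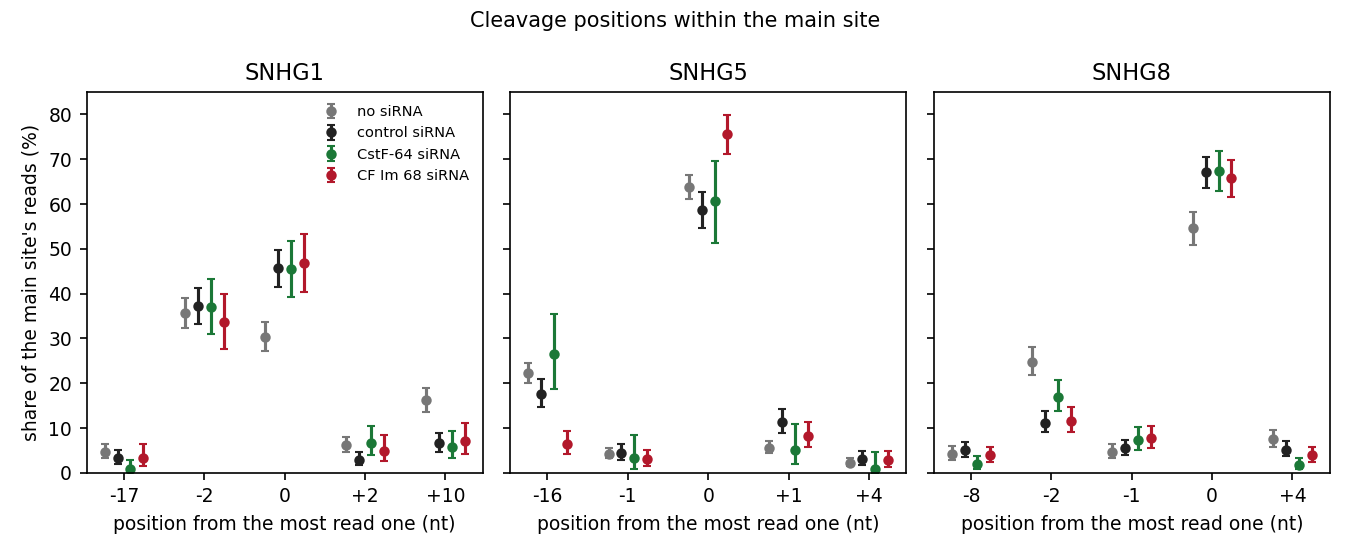
Share of the main site's reads at each position with at least 2% of them in SNHG1, SNHG5 and SNHG8, with exact Clopper-Pearson 95% intervals. Distances in nt run downstream (+) or upstream (−) of the position most read over the 4 libraries together. The CF Im 68 library (red) differs at −16 in SNHG5 (6.53%), and the no siRNA library (grey) differs at 0 in SNHG1 (30.4%) and SNHG8 (54.6%).

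The members did not follow 1 profile over the 4 libraries. Profiles of log2 RPM plus 1, centred on each locus's mean, were compared by Euclidean distance among 8271 loci of at least 10 RPM. Between members the distance ran from 0.45 (SNHG8 and ZFAS1) to 1.56 (SNHG5 and SNHG8) over 10 pairs. The 3 loci nearest to each member lay within 0.16. They were picked as the smallest of 8271 distances, so this value cannot be set against the distances between members. By rank among all loci, ZFAS1 was at 960 from SNHG8, and SNHG8 at 521 from ZFAS1. In the most distant pair, SNHG5 was at 7699 from SNHG8, and SNHG8 at 5043 from SNHG5. ZFAS1 had a nearer rank from SNHG1 than either member of the closest pair had from the other. The closest locus to GAS5 lay on chromosome 22, plus strand, with its main 3′ end at 38052050 (distance 0.04). That of SNHG1 was at 44731286 on chromosome 19, minus strand (0.09), and that of SNHG5 at 76497304 on chromosome 15, plus strand (0.07). SNHG8 was closest to 44854285 on chromosome 15, plus strand (0.04), and ZFAS1 to 85277285 on chromosome 1, minus strand (0.04). With 4 libraries such likeness is a description, and no gene names were given to these loci.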

How the data were processed

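For 4 HEK293 A-seq libraries, 1 per group, the authors deposited unnormalized counts of reads ending at each stranded nucleotide. The submitters' processing notes name hg19 (GRCh37). For aligner and filters, the entry is "not given in the sources used here". Reads of internal priming at A-rich stretches were not separated here. Members, windows and lists were chosen with earlier results of these data known. The named genes were all 5 members, other host genes called after either depletion or at the ends of the level range, and the closest loci by profile.

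Positions were clustered within 25 nt of the most read one. Clusters of a mean of at least 1 RPM on chromosomes 1 to 22 and X (33723 sites) were grouped within 10000 nt into loci, after the member windows had been set apart. Member levels used every position of the window. Fold calls used RPM plus a pseudocount of 1 and required 1.5-fold from both controls. Pairs of the 2 most used sites with at least 5% of reads were tested with at least 50 reads per library. With 1 library per group, no model across replicates could be fitted. Python 3.11.15, scipy 1.17.1 and statsmodels 0.14.6 were used, with edgeR 4.0.16 (TMM) and DESeq2 1.42.0 for scaling only. The calls were tested on simulated counts, drawn around the pooled rate of the control libraries with counting error only. Such counts hold no other variation between libraries, so they cannot show how often calls arise between unreplicated libraries. Alternatives covered scaling, depth, clustering, site choice, read minimum and the reference library.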

Additional observations from a re-analysis of the deposited data

How the results depend on the processing

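No paired analysis was possible because each group has 1 library. The alternatives were those of scaling, thinning to the smallest library, site selection and single controls. Under each, all 5 members were below their reference libraries in the CF Im 68 library and 4 in the CstF-64 library. That count was not made over all loci, and it takes a difference of any size. ZFAS1 after CstF-64 siRNA had a log2 ratio to control siRNA of only −0.04 with TMM and −0.01 with DESeq2 factors. Members with both intervals below 1 after CstF-64 siRNA were 4 by total reads, 3 with TMM and 2 with DESeq2 factors. The number called 1.5-fold lower stayed within 1.5 times the reported 2. Calls gained after CF Im 68 siRNA were GAS5 with DESeq2 factors (log2 −0.61) and SNHG5 without its most read position (−0.87) or against no siRNA alone (−1.22). After CstF-64 siRNA they were ZFAS1 without its most read position (−1.06) and SNHG1 against no siRNA alone (−0.61). With DESeq2 factors 8.36% of all loci were called lower after CF Im 68 siRNA. No such share was counted without the most read position or against no siRNA alone, where a call needs only 1 control. The gained ZFAS1 call left out 947 of the gene's 978 reads in the CstF-64 library. GAS5 lost its CstF-64 call without its most read position (−0.48), which held 526 of its 610 reads there. With positions joined within 10 nt, the number of host genes moved distal was 1 after CF Im 68 siRNA, in place of 0. After CstF-64 siRNA it was 0, in place of 1. Of all pairs, 2.87% and 4.03% moved distal under that setting. The SNHG5 change after CstF-64 siRNA reversed to 9.41 points. The pair itself was then another one, by construction. Against no siRNA alone, 1 host gene (SNHG5) moved distal after CF Im 68 siRNA. The share of loci 1.5-fold higher after CstF-64 siRNA was 5.63% by total reads, 9.57% with TMM and 10.3% with DESeq2 factors, and the share lower 16.9%, 12.8% and 12.1%. Against no siRNA alone, 8.89% of pairs moved distal and 34.97% proximal after CF Im 68 siRNA, and 13.4% distal and 19.01% proximal after CstF-64 siRNA. The adjusted p of the SNHG1 pair after CstF-64 siRNA, 0.0434, was 0.0521 with positions joined within 50 nt and 0.0507 with a minimum of 20 reads. At this depth, sites below a few RPM rest on under 20 reads in the CstF-64 library, such as 15 reads at the upstream SNHG5 site.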

Other observations

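Reads on the strand opposite to the host genes lay in the GAS5 and SNHG8 windows, and no comparison above uses them. The GAS5 window had 38 such reads in each control library, 26 in the CstF-64 library and 37 in the CF Im 68 library, or 2.40, 2.83, 3.54 and 2.89 RPM with overlapping intervals. The SNHG8 window had 22, 36, 13 and 38 reads, or 1.39, 2.68, 1.77 and 2.97 RPM. The ZFAS1 window had 3 to 9 reads and the SNHG5 window 1 in all, while the SNHG1 window had none in any library.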
